A study of Mus musculus with 5 samples.

Results

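Splicing factor and hnRNP genes were examined in RNA-Seq libraries of mouse neural stem/progenitor cell (NSPC) cultures. The genes were chosen by symbol alone: those of the serine/arginine-rich (SR) proteins (Srsf and Tra2), the heterogeneous nuclear ribonucleoproteins (Hnrnp), the tissue-regulated RNA-binding proteins Ptbp, Rbfox, Celf, Mbnl and Nova, the 3′ splice site factors U2af, the U2 snRNP subunits Sf3a and Sf3b, and the snRNP proteins Snrp. The table listed 67 such genes of 12588, with 196 transcripts of 22227, and each of the 11 families had at least 1 listed member. Rbfox1 and Rbfox3 were not listed and were not analysed here.

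The libraries came from NSPCs of the C57BL/6J strain grown in FGF-2 and EGF (20 ng/ml each) with no further treatment, and mRNA libraries were made from 500 ng RNA. There were 2 libraries labelled WT (p75NTR+/+, replicates 1 and 4) and 3 labelled p75NTR-/- (replicates 1, 2 and 4). The knockout is constitutive, so that no cell type is singled out, and the WT cells came from litter mates. The labels give the cells as E12.5, whereas the methods of the study speak of adult animals. Values of the 5 libraries are given below in the order WT 1, WT 4, p75NTR-/- 1, p75NTR-/- 2 and p75NTR-/- 4. A normalized count is a count divided by the size factor of its library, and a gene sum adds up the normalized counts of all transcripts listed for a symbol.

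Ngfr, which encodes p75NTR, went against the labels. It had 0.98 and 2.08 normalized counts in the libraries labelled WT (1 and 2 counts) and 9.89, 141 and 251 in those labelled p75NTR-/-, and a transcript count does not say which exons were read. Every direction below is therefore a direction between labels. Recovered totals were 11688211 to 14452396 counts per library, and a count of 0 allows up to 3 counts, or 2.94 to 3.604 normalized counts, by counting error alone. The libraries WT 4 and p75NTR-/- 4 stood close to each other (Pearson's r of log2 gene sums 0.992 across 10786 genes, which are not independent replicates), as did p75NTR-/- 1 and 2 (0.981), while the 2 libraries labelled WT had an r of 0.931. Of the progenitor markers, Fabp7 (6270 to 6930 TPM, transcripts scaled for length and library) and Vim (781 to 1680 TPM) were the highest in all 5 libraries. Nes and Sox2 lay between 75.3 and 203 TPM, while Pax6 (16.9 to 27.1 TPM), Msi1 (21.3 to 33.0 TPM) and Prom1 (0.3 to 1.33 TPM) were lower. Of the microglial markers 0 of 5 were listed. Of the neuronal markers Dcx, Stmn2 and Syt1 were not listed, Map2 had 617 to 966 TPM, and Tubb3, Snap25 and Elavl3 had at most 21.4 TPM. In bulk RNA, fewer cells of a type and less RNA per cell cannot be told apart.

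The spliceosome removes introns in a cycle of snRNP binding, in which the Sm proteins (Snrpb, Snrpd1 to Snrpf) form the ring of the snRNPs, U2AF binds the 3′ splice site and the SF3 complexes hold the U2 snRNP on the branch point. SR proteins bind exonic enhancers and promote exon inclusion, whereas many hnRNPs and PTBP1 repress exons, and in the neural lineage PTBP1 gives way to PTBP2 as progenitors become neurons. Many SR and hnRNP genes limit their own product by including a poison exon, an exon with a stop codon in frame that sends the transcript to nonsense-mediated decay (NMD).

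Such exons were present among the listed transcripts. Of the 196 transcripts, 29 in 25 genes were annotated by GENCODE M21 as NMD targets, and 0 as retained introns. A listed NMD transcript was thus found for 25 of 67 genes (37.3%), against 8.22% of all listed genes. Among genes with 2 or more listed transcripts it was 25 of 50 (50%), against 17.9%. In 11 genes the annotated stop lay in an internal exon that no listed coding transcript of the gene contains, and these exons had 56 to 456 bases. The transcripts that carry these exons were counted in every library in all 11 genes. The sequences of 6 of the exons are shown, from the first base of the exon to the stop codon, and their transcripts are described below. These 6 were picked as examples and not by a rule set beforehand. Capitals mark the stop codon. They are written 5′ to 3′ on the coding strand and were read from the GENCODE M21 transcripts, on GRCm38. The stretch in Srsf3 is chr17:29039454-29039487 (plus strand, exon 4 of 7), in Srsf6 chr2:162932815-162932966 (plus, exon 3 of 7), in Tra2a chr6:49252965-49253108 (minus, exon 2 of 9), in Tra2b chr16:22259181-22259261 (minus, exon 2 of 10), in Snrpb chr2:130176695-130176752 (minus, exon 3 of 8) and in Hnrnpl chr7:28817335-28817393 (plus, exon 6 of 13).
Srsf3: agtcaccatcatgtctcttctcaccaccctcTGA
Srsf6: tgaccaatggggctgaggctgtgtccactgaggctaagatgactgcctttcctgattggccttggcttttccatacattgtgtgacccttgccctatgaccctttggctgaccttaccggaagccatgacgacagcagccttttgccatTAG
Tra2a: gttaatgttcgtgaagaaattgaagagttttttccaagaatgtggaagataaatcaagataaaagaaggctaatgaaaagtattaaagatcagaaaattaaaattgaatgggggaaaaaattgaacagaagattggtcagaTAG
Tra2b: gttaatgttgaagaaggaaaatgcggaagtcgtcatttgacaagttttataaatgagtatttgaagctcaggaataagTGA
Snrpb: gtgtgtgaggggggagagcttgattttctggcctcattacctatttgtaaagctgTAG
Hnrnpl: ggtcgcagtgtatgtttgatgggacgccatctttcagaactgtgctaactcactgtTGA

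By TPM, the splicing genes were among the more highly expressed genes of the cultures. Their median level was 109 TPM, against 14.6 TPM over all listed genes, and 35 of 67 (52.2%) had at least 100 TPM, against 12% of all genes. Hnrnpk, an hnRNP that binds C-rich RNA, had the highest mean level (1498 TPM, 1350 to 1642 over the 5 libraries), followed by Hnrnpf (1064 TPM), which binds G-rich RNA, and Hnrnpc (935 TPM), which binds uridine tracts. The range of Hnrnpk lay above both others, while those of Hnrnpf (733 to 1266 TPM) and Hnrnpc (868 to 972 TPM) overlapped. Among SR genes Srsf5 (771 TPM), Srsf1 (721 TPM), Srsf3 (423 TPM) and Srsf2 (399 TPM) led. Of the neural regulators, Nova1 (28.0 TPM), Nova2 (12.6 TPM) and Rbfox2 (11.1 TPM) were low beside most splicing genes. Nova1 still lay above the median of all listed genes (14.6 TPM), and the other pair lay slightly below it. Celf3 and Celf5, which are known from neurons, had 1.03 and 1.01 TPM. Ptbp1 (109 TPM, 86.8 to 132) and Ptbp2 (99.0 TPM, 88.3 to 115) had overlapping ranges. Of these means, 60.6 TPM for Ptbp1 and 47.0 TPM for Ptbp2 came from transcripts of at least 1000 bases.

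The order of levels depended on short annotated transcripts. For 15 of the 67 genes, matched transcripts of at least 1000 bases held less than 50% of the TPM, and 5 of these 15 had no listed transcript of that length. In Hnrnpk a transcript of 379 bases (ENSMUST00000223822) held 59.2% of the TPM in WT 1. From the long transcripts alone Hnrnpa2b1 led (813 TPM), followed by Hnrnpa1 (690 TPM), Hnrnpa3 (606 TPM), Hnrnpk (529 TPM) and Srsf3 (423 TPM), and Srsf1 had 151 TPM. The study ran Salmon with its GC-bias setting, and TPM did not follow counts per base of annotated length. Hnrnpa0 (2678 bases, mean of 387 normalized counts) had 90.2 TPM, and Hnrnph2 (2426 bases, mean of 2784) had 95.2 TPM. Taking long transcripts alone leaves this in place.

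**Figure D1:**
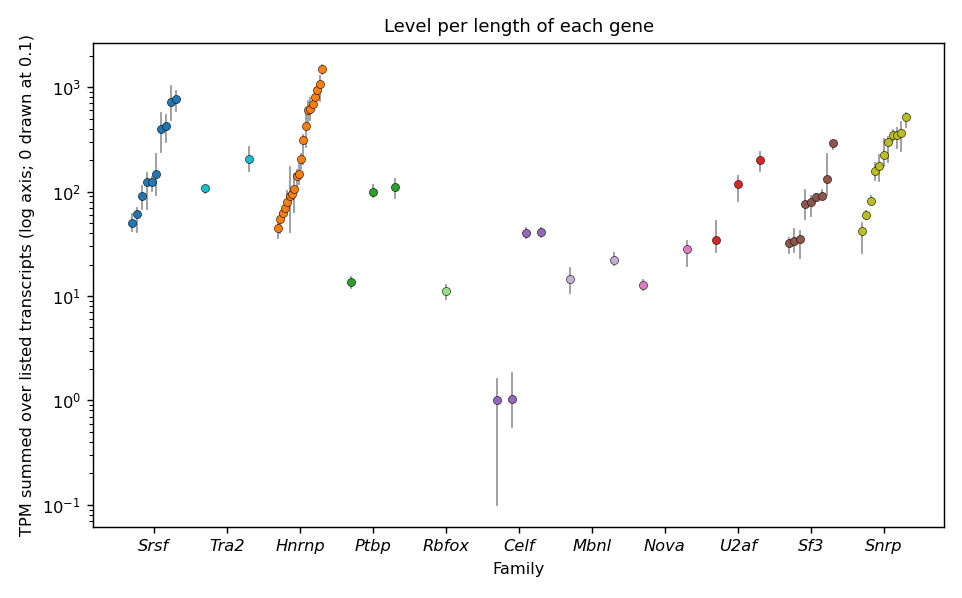
Level of the 67 splicing genes, as TPM summed over listed transcripts (log axis), by family. Points are means of 5 libraries and lines run from the lowest to the highest library. Hnrnp genes reach 1498 TPM and Srsf genes 771 TPM, while Celf3 and Celf5 lie near 1 TPM.

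Between the labels, 0 of 67 splicing gene sums passed the test in limma, where 0.00794% of all genes did (1 of 12588). Passing took an adjusted p under 0.05 by Benjamini-Hochberg, a mean of 50 or more normalized counts and a change of 1.5-fold or more. The lowest adjusted p among them was 0.934. At an unadjusted p under 0.05 limma had 0 of 67 splicing genes and 2.08% of all genes. edgeR and DESeq2 on the recovered counts called 0 of 67 as well, with 0 at an unadjusted p under 0.05 in each, against 2.11% and 2.99% of all genes. The values nevertheless leaned to 1 side: 57 of the 65 genes with a mean of at least 50 had a higher mean log2 value under the p75NTR-/- label. Among all 10786 genes of that level 5671 did. The median log2 difference of the splicing genes was 0.22, against 0.02 over all 10786 genes. In 12 of 65 genes (18.5%) every library labelled p75NTR-/- lay above both labelled WT, against 7.76% of all genes, and in 0 of 65 every one lay below, against 6.96%.

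**Figure D2:**
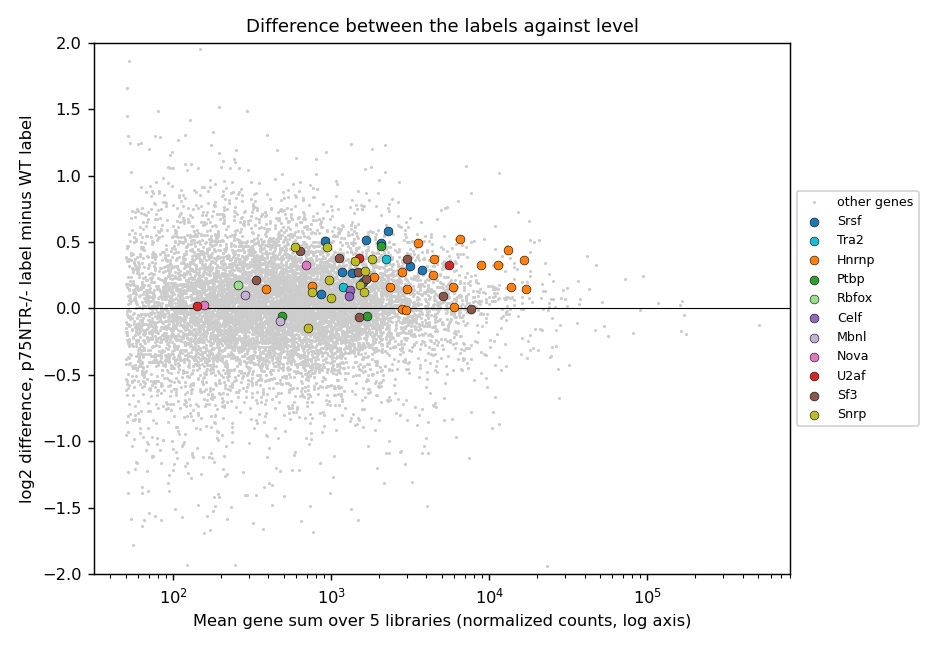
Log2 difference between the p75NTR-/- and the WT label for each gene (y axis) against the mean gene sum in normalized counts (x axis, log). Colored points are the 65 splicing genes with a mean of at least 50, and grey points are the other genes, of which 17 lie outside the y axis. Most splicing genes lie between 0 and 0.58, inside the spread of the other genes.

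The lean did not appear in each library of a label. WT 1 was the lowest library for 41 of the 65 genes (63.1%), against 33.3% of all genes, and p75NTR-/- 1 and 2 were both above the other 3 libraries for 36 of 65 (55.4%), against 22.8%. These orders were counted after the values were seen. The median deviation of the splicing genes from their own mean was -0.27 in WT 1, -0.01 in WT 4, 0.17 in p75NTR-/- 1, 0.15 in p75NTR-/- 2 and -0.03 in p75NTR-/- 4. The 2 libraries numbered 4 differed by at most 0.15 on the log2 scale for 56 of 65 genes (86.2%), against 68.7% of all genes, with a median difference of -0.01. The 2 libraries numbered 1 were that close for 11 of 65 genes (16.9%), against 24.4%, with a median difference of 0.42. Both libraries numbered 4 lay above the other 3 for 7 of 65 genes (10.8%), against 23.0%, and below them for 9 of 65 (13.8%), against 22.0%. Without WT 1, 49 of 65 genes were higher under the p75NTR-/- label. The median difference between the labels was then 0.09, against 0.007 over all genes. Without WT 4 it was 0.35 and 12 of 67 genes (17.9%) had an unadjusted p under 0.05, against 14.0% of all genes. Without p75NTR-/- 4 it was 0.28 and 10 of 67 (14.9%) had one, against 10.9%. The lowest adjusted p in limma was 0.32 and 0.365.

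The summed level of all 67 genes was 12400, 15000, 17900, 17700 and 14400 TPM. Markers of cell types also differed between these libraries. Of the astrocyte markers 5 of 5 were listed, with a summed level of 952, 598, 466, 492 and 661 TPM. Gfap (9.96, 28.2, 0.5, 0.05 and 30.5 TPM) and Aqp4 (19.8, 35.0, 3.54, 5.84 and 28.2 TPM) were lowest in p75NTR-/- 1 and 2, as were Aldh1l1 and Slc1a2. S100b had another order (483, 118, 164, 128 and 138 TPM), with WT 1 the highest library and WT 4 the lowest. Of the progenitor markers 7 of 7 were listed, with a sum of 7350 to 8900 TPM that was mostly Fabp7. Their orders differed: Nes was highest in p75NTR-/- 1 and 2 (75.3, 114, 203, 158 and 115 TPM), Sox2 was lowest in p75NTR-/- 1 (159, 110, 75.9, 124 and 128 TPM), and Vim was highest in the 2 libraries numbered 4 (781, 1560, 925, 922 and 1680 TPM). Of the neuronal markers 4 of 7 were listed, with a sum of 929, 690, 984, 969 and 648 TPM that was mostly Map2, and of the oligodendrocyte lineage 4 of 6 (748, 362, 629, 941 and 343 TPM, with Sox10 and Mbp not listed). Their part in the result was not tested.

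**Figure D3:**
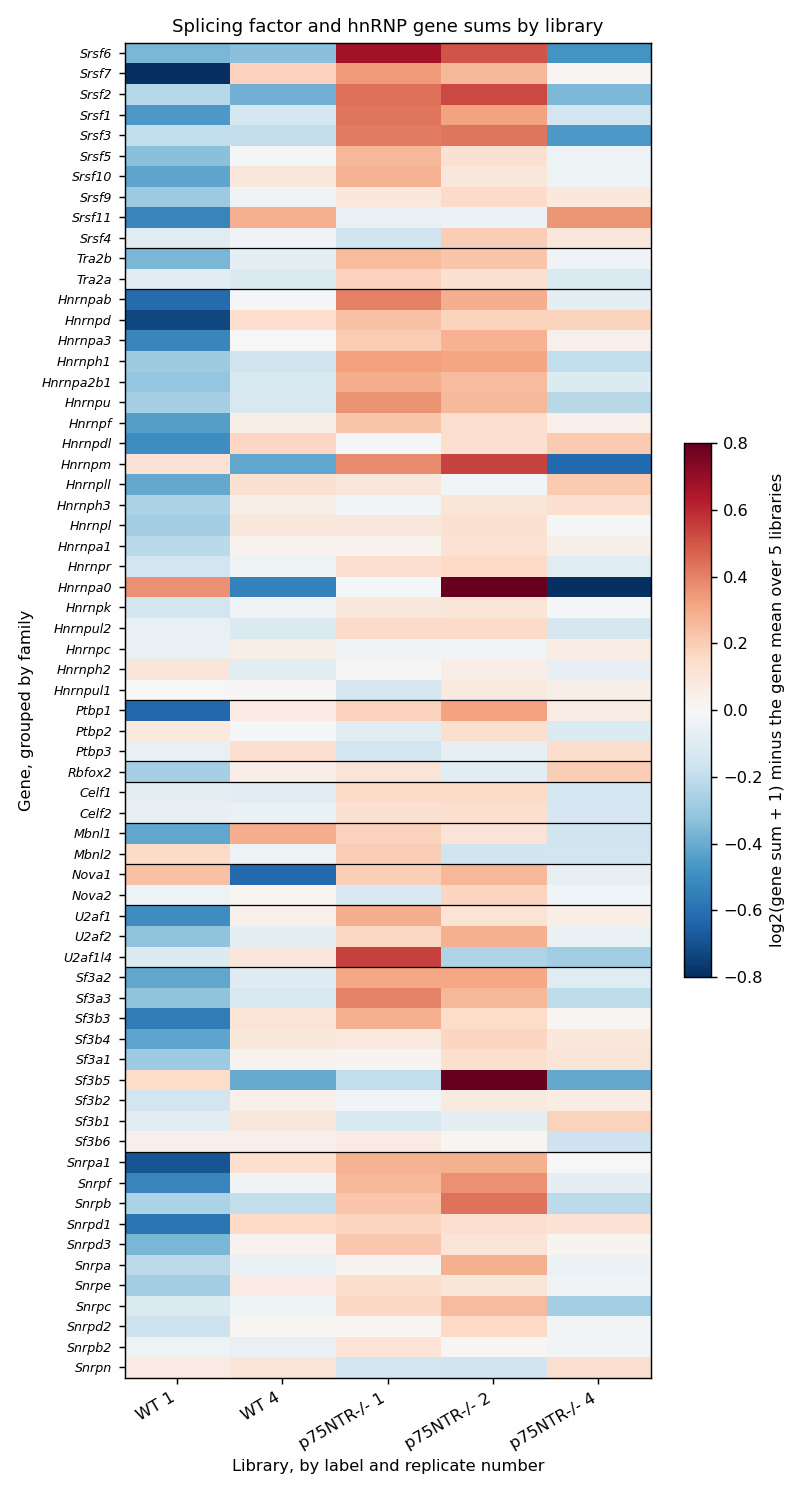
Gene sums of the 65 splicing genes with a mean of at least 50, as log2(gene sum + 1) minus the mean of the gene over the 5 libraries. Rows are genes grouped by family, columns are libraries, and colors are limited to 0.8 on either side, which Hnrnpa0, Sf3b5 and Srsf7 exceed. WT 1 is mostly blue, p75NTR-/- 1 and 2 are mostly red, and the 2 libraries numbered 4 are close to white.

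**Figure D4:**
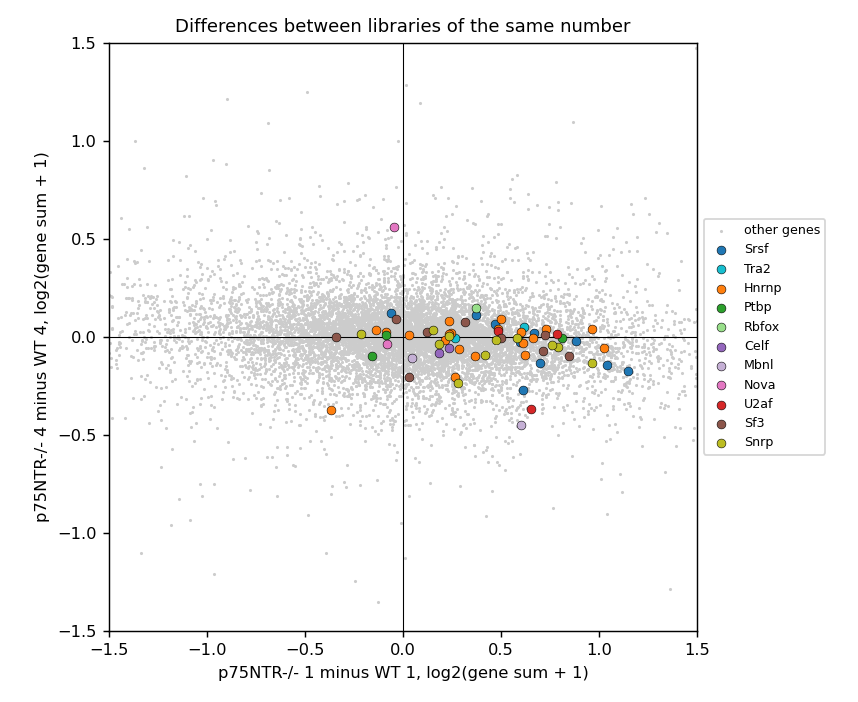
Log2 difference between the libraries labelled p75NTR-/- and WT with number 1 (x axis) and with number 4 (y axis). Colored points are the 65 splicing genes and grey points the other genes, of which 410 lie outside the axes. Splicing genes spread to 1.15 along x, and 56 of the 65 stay within 0.15 of 0 along y.

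Among the SR proteins, which promote exon inclusion, 10 of 10 Srsf genes had a higher mean under the p75NTR-/- label (median log2 difference 0.30) and 0 passed the test. Srsf6, the Srsf gene with the largest difference, had 1675, 1717.5, 3443, 3072 and 1555 normalized counts. p75NTR-/- 1 and 2 were high, while p75NTR-/- 4 was the lowest of the 5 libraries, so that the labels overlapped. The log2 difference was 0.58 ± 0.39 (SE, adjusted p = 0.934 in limma). Srsf5, the Srsf gene with the highest mean count, had 2954, 3696, 4471, 4053 and 3622.5 normalized counts, again with both libraries numbered 4 close together (0.29 ± 0.20, SE). The difference of Srsf6 was 0.37 without p75NTR-/- 1 and 0.94 without p75NTR-/- 4, and that of Srsf5 was 0.13 without WT 1 and 0.45 without WT 4. Srsf2 (749, 672, 1191, 1264 and 681 normalized counts) and Srsf3 (2654, 2671, 4059, 4101 and 2209) likewise had p75NTR-/- 1 and 2 above the other 3 libraries. Srsf7 differed from these in that WT 1 alone was low (913, 1817, 2023, 1925 and 1612 normalized counts). In 6 of the 10 Srsf genes p75NTR-/- 1 and 2 were above the other 3 libraries, and Srsf4, Srsf9, Srsf10 and Srsf11 did not follow this order. Srsf11 had its highest values in the 2 libraries numbered 4 (1886 and 1972 normalized counts, against 1074 to 1495 in the other 3). Srsf9 (1097, 1314, 1420, 1494.5 and 1421 normalized counts) was the only Srsf gene with every library labelled p75NTR-/- above both labelled WT (0.27 ± 0.17, SE).

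Tra2b, an SR-like activator of exon inclusion, had 1705, 2079.5, 2617, 2558 and 2155 normalized counts. Here every library labelled p75NTR-/- lay above both labelled WT, by a small margin between the libraries numbered 4. The difference was 0.37 ± 0.19 (SE, adjusted p = 0.934), and 0.23 without WT 1. Its paralog Tra2a spanned 1091 to 1340 normalized counts, with p75NTR-/- 4 the lowest.

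Among the hnRNP genes, whose products package nascent RNA and often repress exons, 18 of 20 had a higher mean under the p75NTR-/- label (median log2 difference 0.20). Hnrnpk, the highest, had 15368, 16697, 18082, 18208 and 16850.3 normalized counts, and all 3 libraries labelled p75NTR-/- lay above both labelled WT, although WT 4 and p75NTR-/- 4 differed by 0.01 on the log2 scale. Its difference between the labels was 0.14 ± 0.16 (SE). Hnrnpab, with the largest difference of the family, had 4111, 6255, 8361, 7734 and 6014 normalized counts (0.53 ± 0.27, SE). Its low value was that of WT 1, and p75NTR-/- 4 lay below WT 4. Without WT 1 the difference was 0.22 for Hnrnpab and 0.08 for Hnrnpk, and without WT 4 it was 0.83 for Hnrnpab. Hnrnpa2b1, Hnrnpa3, Hnrnpa1 and Hnrnpd also had no overlap between the labels, and in each of these the libraries numbered 4 differed by 0.02 to 0.04. Hnrnpc was the most even hnRNP, with 5763 to 6242 normalized counts. Hnrnpm (4546, 3142, 5455, 6092 and 2729 normalized counts) and Hnrnpa0 (442, 236, 341, 735 and 182) were instead lowest in both libraries numbered 4.

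PTBP1, which represses neuronal exons in progenitors, was encoded by a gene with 1308, 2116, 2293, 2528 and 2104 normalized counts. WT 1 stood below the other 4, and WT 4 lay between p75NTR-/- 4 and p75NTR-/- 1. The difference between the labels was 0.47 ± 0.26 (SE, adjusted p = 0.934). Without WT 1 it was 0.12, and without WT 4 it was 0.815. Ptbp2, the neuronal paralog, had 1780, 1673, 1593, 1841 and 1564 normalized counts and a difference of -0.06 ± 0.17 (SE), which lay between -0.13 (without p75NTR-/- 2) and -0.01 (without WT 1) with a library left out. These values overlapped between the labels, with the highest and lowest library both labelled p75NTR-/-.

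The other regulators of the neural lineage did not pass the test either. Rbfox2, which binds GCAUG elements beside exons, had 211, 263, 273, 238 and 292 normalized counts (0.18 ± 0.19, SE). Nova1, a regulator of neuronal exons, had 799.8, 440.0, 774, 815 and 650 normalized counts (0.32 ± 0.31, SE), so that a single low library, WT 4, set its sign. Nova2 was even, at 144 to 177 normalized counts (0.02 ± 0.17, SE). Mbnl1 (210.0, 342, 319, 300.3 and 250.4 normalized counts) and Mbnl2 (424 to 541), which act during differentiation, had differences of 0.10 ± 0.27 and -0.09 ± 0.20 (SE). Celf1, which binds GU-rich elements, had 1244, 1238, 1465, 1463 and 1191 normalized counts (0.14 ± 0.18, SE), with p75NTR-/- 1 and 2 above the rest. With a library left out, the difference lay between 0.02 (without WT 1) and 0.34 (without WT 4) for Rbfox2 and between 0.09 (without p75NTR-/- 1 or 2) and 0.24 (without p75NTR-/- 4) for Celf1.

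Of the genes that define the 3′ splice site, U2af2, which reads the polypyrimidine tract, had 4390.5, 5192, 6143.5, 6659 and 5289 normalized counts (0.33 ± 0.19, SE). U2af1, which reads the AG, had 1046, 1516, 1806, 1595 and 1532 normalized counts (0.38 ± 0.23, SE). In both, every library labelled p75NTR-/- lay above both labelled WT, and the libraries numbered 4 differed by 0.03 and 0.02. Sf3b1, whose product contacts the branch point, had 7253, 8174, 7065, 7287 and 8719.9 normalized counts, with both libraries numbered 4 the highest (-0.01 ± 0.18, SE). Sf3a2 had 466, 578, 769.8, 771 and 582 normalized counts and the largest difference of the SF3 genes (0.43 ± 0.22, SE). Without WT 1 the difference was 0.21 for U2af2, 0.11 for U2af1 and 0.28 for Sf3a2, and without WT 4 it was 0.65 for U2af1. Of the 9 SF3 genes, 7 had a higher mean under the p75NTR-/- label.

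Of the 11 Snrp genes, 10 had a higher mean under that label. Snrpb, a core Sm protein gene, had 1499.5, 1564.5, 2084, 2416 and 1546 normalized counts (0.37 ± 0.24, SE), with p75NTR-/- 1 and 2 alone high. Snrpa1, a U2 snRNP protein gene, had 353, 624, 691, 696 and 568 normalized counts (0.47 ± 0.29, SE), with WT 1 alone low. The difference of Snrpa1 was 0.06 without WT 1 and 0.875 without WT 4, and that of Snrpb was 0.23 without p75NTR-/- 2. The exception was Snrpn, an imprinted paralog of Snrpb (749, 771, 645, 640.3 and 779.6 normalized counts, log2 difference -0.15 ± 0.18, SE), which was lowest in p75NTR-/- 1 and 2. All adjusted p-values of this and the other families were 0.934 or higher in limma, so that none of these differences passed the test.

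Other genes of splicing were counted as a comparison. Among all genes with a mean of at least 50, 5671 of 10786 had a higher mean under the p75NTR-/- label. Of 60 core spliceosome genes 51 did (median log2 difference 0.16), with 0 past the test in either direction. For regulators outside the 11 families it was 27 of 34 (median 0.19), for the exon junction complex and NMD genes 11 of 15 (median 0.11), and for the kinases of SR proteins 6 of 8 (median 0.08), also with 0 past the test. Between the libraries numbered 4 the median difference was -0.01 for the core spliceosome and 0.001 for the regulators. Of the 34 regulators, 18 had p75NTR-/- 1 and 2 above the other libraries as Srsf6 did, against 22.8% of all genes (Sfpq: 146, 103, 232, 218 and 97.2 TPM). Every library labelled p75NTR-/- lay above both labelled WT in 4 of the 34 regulators and below both in 2, against 7.76% and 6.96% of all genes. For the core spliceosome it was 9 of 60 above and 1 below. Among the exon junction complex and NMD genes it was 4 of 15 and 0, and among the kinases 1 of 8 and 0. Qk was lower in each library labelled p75NTR-/- than in both labelled WT (390, 318, 271, 287 and 306 TPM). Its log2 difference was -0.30 and did not pass the test (adjusted p = 0.934 in limma).

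At the level of transcripts, limma called 0 of 196 splicing transcripts and 0.0135% of all transcripts (3 of 22227). At an unadjusted p under 0.05 it had 8 of 196 (4.08%), against 3.14% of all, edgeR had 9 of 190 (4.74%), against 2.52%, and DESeq2 had 13 of 196 (6.63%), against 4.03%. With all 3 criteria edgeR and DESeq2 called 0 splicing transcripts. With a minimum mean of 10 or none, DESeq2 called 2 of 196 (1.02%), against 0.364% of all. The largest differences among transcripts with a mean of at least 50 came from transcripts that were at 0 in some libraries of a label. Ptbp3 is an example, with 1 coding transcript (ENSMUST00000173699) at 74.6, 119, 0, 86.5 and 0 normalized counts and another (ENSMUST00000102883) at 0, 71.8, 67.3, 38.4 and 94.0. A coding transcript of U2af2 (ENSMUST00000165399) had 245, 551, 371, 0 and 393 normalized counts, and one of Hnrnpr (ENSMUST00000131671) had 0, 160, 175, 48.1 and 194. In none of these 4 did a label separate from the other.

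Transcripts with reads in every library gave smaller differences. A second coding transcript of Hnrnpk (ENSMUST00000177497, chr13:58391239-58398055) had 500.5, 494, 1338, 1443 and 643 normalized counts, so that every library labelled p75NTR-/- was above both labelled WT, with a log2 difference of 1.11 ± 0.43 (SE, adjusted p = 0.962 in limma and 0.396 in DESeq2). The NMD transcript ENSMUST00000171640 of Hnrnpd had 103, 58.3, 220, 204 and 142 normalized counts (1.25 ± 0.37, SE, adjusted p = 0.962), again with no overlap. Srsf1 ENSMUST00000079866 had 27.5, 65.5, 91.0, 109 and 72.9 normalized counts (1.06 ± 0.45, SE, and 0.45 without WT 1). For Hnrnpc ENSMUST00000228198 (58.9, 297, 868, 360.4 and 143 normalized counts) and Hnrnpdl ENSMUST00000128187 (151, 55.1, 206, 520.2 and 42.3) the labels overlapped. In Rbfox2 a transcript (ENSMUST00000228087) was low in p75NTR-/- 1 and 2 alone (51.0, 95.7, 18.8, 21.6 and 85.6 normalized counts).

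The share of a transcript within its gene was compared apart from the level of the gene. limma on the log2 ratio of a transcript to the rest of its gene called 0 of 174 splicing transcripts and 0.0% of 14596 transcripts, and had 5 of 174 (2.87%) at an unadjusted p under 0.05, against 3.68% of all. Among transcripts with a mean of at least 50, the largest shift of this log2 ratio outside the transcripts above was that of Snrpb2 ENSMUST00000008477, which held all counts of the gene in both libraries labelled WT and 94.9%, 99.8% and 97.6% in those labelled p75NTR-/- (unadjusted p = 0.0303, adjusted p = 0.999 in limma).

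The transcripts with the exons shown above held a minor part of the counts of each gene, and a larger part of its TPM, which are scaled for length: 7.87 to 23.5% in Srsf3, 20.6 to 27.4% in Srsf6, 27.6 to 45.5% in Tra2a, 28.0 to 38.0% in Tra2b, 8.57 to 20.2% in Snrpb and 10.8 to 15.0% in Hnrnpl over the 5 libraries. The shares that follow are of counts. In Srsf3 the exon of 456 bases belongs to ENSMUST00000037776, which held 9.32%, 16.4%, 6.78%, 5.18% and 14.9% of the counts of the gene. The exact 95% binomial intervals of WT 4 (15.0 to 17.9%) and p75NTR-/- 2 (4.46 to 5.98%) do not overlap, and these cover counting error only. The share was high in the 2 libraries numbered 4, where the coding transcript was lowest (2232 and 1879 normalized counts, against 2406 to 3889 in the other 3), while the NMD transcript itself had 247, 439, 275, 213 and 329.6 normalized counts. The difference in share between the labels had an adjusted p of 0.999 in limma. In Srsf6 the order was turned around: the NMD transcript held 6.21%, 5.63%, 7.59%, 7.35% and 5.37%, highest in p75NTR-/- 1 and 2, where the coding transcript was also highest (3182 and 2846 normalized counts, against 1472 to 1621).

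Tra2a was likewise highest in the 2 libraries numbered 4, with 3.52%, 5.41%, 2.58%, 3.36% and 4.94% of its counts on the NMD transcript, whose exact 95% intervals were wide (for WT 4, 4.13 to 6.96%, from 57 counts). The Tra2b NMD transcript had 24 to 52 counts in a library and held 1.20 to 1.97%, and that of Snrpb held 2.88%, 2.73%, 2.66%, 4.33% and 1.64%. In Hnrnpl, which represses exons with CA-rich elements, the share was 3.96%, 4.05%, 5.65%, 5.48% and 4.64%, above both libraries labelled WT in every library labelled p75NTR-/-. Of the 25 genes, 2 (8.0%, Hnrnpl and Hnrnpa2b1) had this order, against 12.7% of the 952 genes with a mean of at least 50, an NMD transcript and 2 or more listed transcripts. The opposite order was found in 1 (4.0%, Snrpa1), against 6.41%, with 8.06%, 6.83%, 4.15%, 0.0% and 4.65% (0 of 579 counts in p75NTR-/- 2, which allows a share of up to 0.518%). The share of 0 of the 29 NMD transcripts had an unadjusted p under 0.05 in limma.

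**Figure D5:**
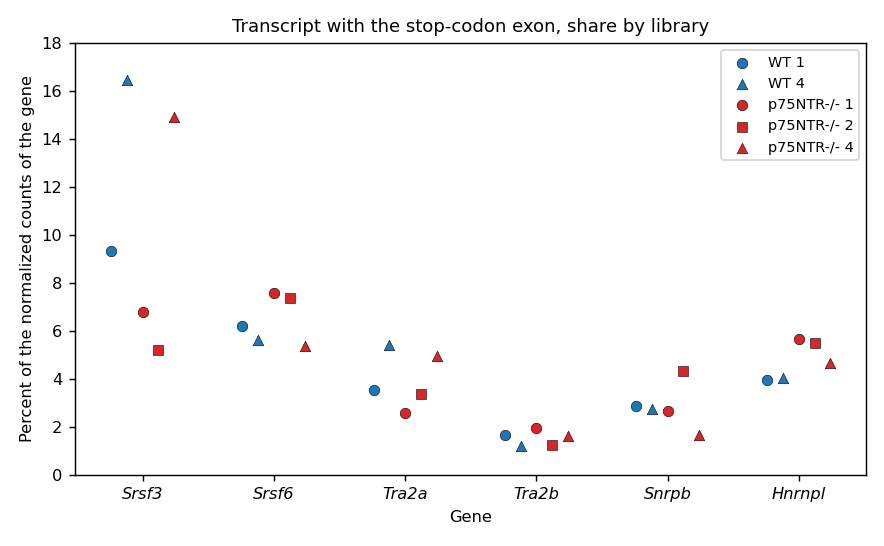
Percent of the normalized counts of a gene (y axis) on the transcript with the internal exon that holds the stop codon, for the 6 genes whose sequences are shown (x axis). Each point is 1 library, blue for the WT label and red for the p75NTR-/- label, with the symbol giving the replicate number. Srsf3 spans 5.18 to 16.4% and is highest in the 2 libraries numbered 4.

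Summed over the splicing genes, NMD transcripts held 9.01%, 9.25%, 8.75%, 8.84% and 9.31% of the counts, against 0.715 to 0.772% in all other genes. The labels differed by -0.16 percentage points (9.13% ± 0.17, SD, n = 2, and 8.97% ± 0.30, SD, n = 3). An exact permutation test, two-sided as the doubled one-sided p, gave p = 0.6, and with 2 against 3 libraries it cannot go below 0.2. Most of this sum came from Hnrnpa1, whose transcript ENSMUST00000230171 held 92.5 to 95.4% of the counts of the gene and encodes 320 codons, against 373 for the highest coding transcript. Without Hnrnpa1 the share was 2.43%, 2.92%, 3.20%, 2.97% and 2.85%. Of the 29 transcripts, 4 keep at least 80% of the reading frame (of Hnrnpa1, Hnrnpa2b1, Celf2 and Hnrnpu), and the other 25 held 1.57%, 2.01%, 1.95%, 1.86% and 1.85% of the counts of the splicing genes.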

How the data were processed

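RNA was sequenced from NSPC cultures (5 libraries). The authors quantified reads with Salmon 0.10.2 against the Ensembl transcriptome of mm10 (GRCm38.p6), after FastQC, imported estimates with tximport and normalized them with DESeq2 1.22.0 in R 3.6.1. Although a gene-level import is described, the table lists transcripts. The deposited signal of a library is a count divided by its size factor, plus 0.5. The deposited TPM columns, treated as a score because repeated lines inflate their sums, are the authors' values and were used for levels and, as an alternative unit, for the NMD share. The study describes its RNA-Seq replicas as independent NSPC preparations, and names more of them than there are libraries under either label here. Nothing in the labels themselves ties the libraries to separate cultures or animals. The p-values measure the spread between these libraries, and the labels do not say how much of it lies between preparations. Deposited mean counts, fold changes and p-values are the authors' own comparison and were not used. Columns of per-sample values left unused numbered 0.

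Of 22530 lines, 303 repeat a transcript and were dropped. After 0.5 was subtracted, 100% of values up to 200 counts were whole multiples (within 0.1) of a step in each library, which gave counts back. Salmon shares reads between similar transcripts, so transcript counts are estimates. Of the 196 splicing transcripts, 193 were matched to GENCODE M21, and 2 of Hnrnpu and 1 of Srsf1 were not.

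log2(gene sum + 1), log2(normalized count + 1) and log2 transcript ratios were compared between labels with limma 3.58.1 (R 4.3.3) over the whole table, with Benjamini-Hochberg adjustment. This scale understates changes of low features. edgeR 4.0.16 and DESeq2 1.42.0 on the recovered counts were alternatives, as were pseudocounts, filters, a mean-dependent prior, TMM factors, single libraries left out and the replicate number as a block. limma was also run on simulated data with independent libraries. That simulation lacks the closeness between libraries of different labels seen here, and nothing is drawn from it. Summaries were made in Python 3.11.15 (scipy 1.17.1, numpy 2.4.6, pandas 2.3.3).

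Members, lists and tests were chosen with earlier results of these data known. Genes named with a fold change were members past the threshold (0), the highest member of each family and the one with the largest difference, the neural Ptbp, Rbfox and Nova regulators, and the 10 transcripts and 5 shares with the largest differences. Others are named by their values after these were seen.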

Additional observations from a re-analysis of the deposited data

How the results depend on the processing

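The count of splicing genes and transcripts past the threshold stayed at 0 under every alternative except DESeq2 on transcripts with a lower minimum mean. It stayed at 0 in edgeR, with the replicate block and with single libraries left out (0 to 0 without each library for gene sums, transcripts and shares). With a minimum mean of 10, or with none (added after seeing the data), DESeq2 called 2 of 196 transcripts (1.02%), against 0.364% of all. Hnrnpk ENSMUST00000224342, with a mean of 47.1, had 235.5 normalized counts in p75NTR-/- 2 and 0 in the other 4 libraries (adjusted p = 0.000438 in DESeq2, against 0.962 in limma). Hnrnpd ENSMUST00000171786, with a mean of 29.5, had at most 1 normalized count under the WT label and 33.6, 32.4 and 80.3 under the other (0.0305 in DESeq2, against 0.219 in limma). The median difference of gene sums was 0.20 to 0.24 over pseudocounts, minimum means of 10 and 200, TMM factors and the replicate block, and 0.09 (without WT 1) to 0.35 (without WT 4) with a library left out.

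The difference of the NMD share was -0.16 percentage points and turned to 0.48 in TPM, 0.33 without Hnrnpa1 and 0.10 over transcripts with a shortened frame (both of the latter added after seeing the data), and lay between -0.33 and -0.04 with a library left out. The cause was not tested.

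Of 29 named results, 21 kept their sign in every alternative. With a library left out, 8 changed sign in part of their range: Mbnl1 (-0.25 without WT 1, to 0.46), Mbnl2 (-0.21 to 0.004, the latter without WT 1), Nova1 (-0.11 without WT 4, to 0.75), Nova2 (-0.06 without p75NTR-/- 2 and -0.006 without WT 1, to 0.089), Sf3b1 (-0.10 to 0.078, above 0 without WT 4, p75NTR-/- 1 or p75NTR-/- 2), Hnrnpr ENSMUST00000131671 (-0.44 without WT 1, to 6.90), Ptbp3 ENSMUST00000102883 (-0.20 without WT 1, to 5.99) and U2af2 ENSMUST00000165399 (-4.26 to 0.054, the latter without p75NTR-/- 2). With the replicate block, which leaves p75NTR-/- 2 without a partner, the sign also changed for Nova2 (-0.06), Sf3b1 (0.028) and U2af2 ENSMUST00000165399 (0.054). The deviations of libraries with the same number from their label means had an r across genes of 0.256 for number 1 and 0.476 for number 4. Across the splicing genes r was -0.024 and 0.461. WT 1 and p75NTR-/- 2, which differ in number, had an r of 0.482 across all genes. With 2 WT libraries the deviations of WT 1 and WT 4 mirror each other, so that WT 1 and p75NTR-/- 4 had -0.476. Nothing in the labels says what a number shares, and with 2 pairs the pairing was not taken as given. The block changed no call of a splicing gene or transcript.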

Other observations

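The 2 splicing genes with a single exon, Hnrnpa0 (chr13:58125879-58128556) and Sf3b5 (chr10:13005343-13009183), had an order of libraries of their own, noticed after their values were seen. Hnrnpa0 had 442, 236, 341, 735 and 182 normalized counts in WT 1, WT 4, p75NTR-/- 1, p75NTR-/- 2 and p75NTR-/- 4, and Sf3b5 had 348, 237, 274, 568 and 237. In both, p75NTR-/- 2 was the highest library and WT 1 the next, whereas WT 1 was the lowest library for 41 of the 65 splicing genes. Over all 192 genes with a mean of at least 50 whose listed transcripts have 1 exon (mitochondrial genes left out), p75NTR-/- 2 was the highest library for 54 (28.1%), against 17.3% of all 10786 genes, and WT 1 and p75NTR-/- 2 were both above the other 3 for 45 (23.4%), against 13.2%. The median deviation of these 192 genes from their own mean was 0.07, -0.08, 0.02, 0.13 and -0.08. What sets this order was not tested.

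In Srsf1 a pair of listed transcripts had the same count in every library. The NMD transcript ENSMUST00000172186 and the unmatched ENSMUST00000195009 each had 213, 258, 460, 297 and 264 counts, and each held 14.2 to 16.8% of the counts of the gene. Counts that are equal in all 5 libraries do not tell the entries apart.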
